A study of Mus musculus with 6 samples.

Results

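AP-1 is a family of dimeric transcription factors built from Fos and Jun proteins, and the 7 mouse genes that encode these subunits were followed here: *Fos*, *Fosb*, *Fosl1* and *Fosl2* of the Fos family, and *Jun*, *Junb* and *Jund* of the Jun family. The genes were taken by symbol, and all 7 were found once each among the 55401 genes of the deposited table. RNA of C57BL/6 mouse liver had been sequenced in 3 groups of 2 libraries. The COS+APAP mice received 20 mg/kg costunolide (COS, a sesquiterpene lactone of plants) 12 h and again 40 min before an intraperitoneal dose of 400 mg/kg acetaminophen (APAP), and their liver was taken 6 h after that dose. The APAP mice received the same acetaminophen dose for 6 h without costunolide, and the control mice are labelled normal, with no injection or vehicle named. The labels do not say that libraries of a group came from separate mice, so p-values measure the spread between these libraries, which may be technical.

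Libraries are called by the replicate number of their titles: 2 and 3 for COS+APAP, 1 and 3 for APAP, and 1 and 3 for control. The protocol text assigns the pretreatment to samples 5 and 6, and in accession order those are the libraries labelled APAP. The groups used here follow the title, source name and treatment of each library. With the protocol text in their place, the APAP and COS+APAP names would be exchanged and each difference between them would change its sign. The COS+APAP titles carry the prefix 2 and the other titles the prefix 1, so anything that goes with the prefix cannot be told apart from costunolide.

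A Fos protein binds DNA only with a partner, usually a Jun protein, whereas Jun proteins can also pair with each other. Both kinds carry a basic region that contacts DNA and a leucine zipper that holds the dimer, and the dimers bind the AP-1 site and related sites of the cAMP response element (CRE) kind. Most of these genes are immediate early genes: their transcription starts within minutes of a stimulus without new protein synthesis, and the mRNAs of several of them are short-lived. In liver, AP-1 is known from regeneration and from injury, and the kinase JNK, which phosphorylates the Jun protein, is known from acetaminophen toxicity in mice.

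The promoters of *Fos* and *Jun* are shown because these 2 genes had the largest fitted falls between COS+APAP and APAP. They are RefSeq sequences of mouse build GRCm38.p6, 250 bases before and 50 bases after the annotated start, 5′ to 3′ along the gene. *Fos* lies at chr12:85473640-85473939 on the plus strand and *Jun* at chr4:95052173-95052472 on the minus strand. Capitals mark matches to the motifs named in the next paragraph.
Fos: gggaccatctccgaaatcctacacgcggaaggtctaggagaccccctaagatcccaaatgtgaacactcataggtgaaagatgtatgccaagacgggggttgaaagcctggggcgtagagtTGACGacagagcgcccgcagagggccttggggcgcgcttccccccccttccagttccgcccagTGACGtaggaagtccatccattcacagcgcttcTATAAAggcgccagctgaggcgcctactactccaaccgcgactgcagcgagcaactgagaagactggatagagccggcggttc
Jun: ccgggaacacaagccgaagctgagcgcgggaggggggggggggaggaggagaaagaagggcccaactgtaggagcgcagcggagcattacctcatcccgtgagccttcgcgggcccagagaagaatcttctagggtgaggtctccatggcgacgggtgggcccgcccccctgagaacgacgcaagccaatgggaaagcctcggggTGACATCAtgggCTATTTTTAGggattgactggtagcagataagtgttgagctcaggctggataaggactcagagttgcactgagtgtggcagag

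Positions count from 0 at the start base, and motifs were searched on both strands. In *Fos* the CRE half-site TGACG lay at -129 to -125 and again at -66 to -62, and TATAAA lay at -33 to -28. In *Jun* a CRE-like site, TGACATCA, lay at -45 to -38. The MEF2 motif, which allows several letters at some positions, matched at -33 to -24. As searched, that motif is its own reverse complement, so any match appears on both strands. Among 27025 promoters of the same length, TGACG occurred in 21.02%, TGACNTCA in 8.97%, TATAAA in 14.2% and the MEF2 motif in 3.26%. The half-site TGACG was also in the windows of *Fosb* and *Junb*, TATAAA was also in that of *Junb*, and none of the motifs was in those of *Fosl2* and *Jund*. TGANTCA, the letters of the AP-1 site, occurred in 7.93% of all promoters and in none of the 6 windows, and the CArG box, known as the binding site of serum response factor, in 1.57% and likewise in none. The RefSeq starts of *Fosl2* and *Jund* lie away from those of the deposited table, downstream and upstream, so their windows flank other starts. The RefSeq start of *Fosb* lies 6 bases downstream of the deposited one and that of *Junb* 30 bases upstream. TATAAA of *Junb* lay at 0 to 5, on that RefSeq start. *Fosl1* was not matched. A match is a description of the letters, not of binding.

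AU-rich elements in the 3′ untranslated region are known to shorten the life of immediate early mRNAs. They are shown as 30 bases for the 3 members with the most ATTTA pentamers in the longest coding transcript of GENCODE release M21, with the pentamers in capitals. *Fosl2* held 8 pentamers, *Fos* 4 and *Jun* 4, and *Junb* held 2, where the median over 20938 genes was 1. At least as many were held by 10.39% of genes for *Fosl2*, 27.67% for *Fos* and *Jun*, and 46.68% for *Junb*. The untranslated region of *Fosl2* was 4653 bases long, that of *Fos* 815, *Jun* 1233 and *Junb* 485.
Fos: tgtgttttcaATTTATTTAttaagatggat
Fosl2: attgacATTTAttttattATTTAttttaaa
Jun: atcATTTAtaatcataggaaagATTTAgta
The nonamer TTATTTATT was in the untranslated regions of *Fos* and *Fosl2*, and in 7.60% of all genes. *Fosb*, *Fosl1* and *Jund* held 1 pentamer each.

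The libraries held 71115112 to 76669799 estimated counts, of which a sequenced fragment made up about 4. Mitochondrially encoded RNA accounted for 11.8% and 10.8% of counts in COS+APAP, 8.28% and 7.37% in APAP, and 12.8% and 16.1% in control. The defining hepatocyte markers *Alb*, *Apoa1*, *Ttr*, *Serpina1c* and *Cps1* summed to 45998 and 43481 FPKM in COS+APAP, 59293 and 56751 FPKM in APAP, and 49218 and 48783 FPKM in control, most of it *Alb*. Of these 5, *Cps1* was called higher and *Ttr* lower in APAP against control (1.11 and -0.78, adjusted p = 0.00929 and 0.0145). Levels below are FPKM, fragments scaled to transcript length and library size, and can be compared between genes. Fold changes are on the log2 scale, with their standard error, from edgeR's quasi-likelihood test of the counts, and a gene was called at an adjusted p below 0.05 (Benjamini-Hochberg over 10051 genes). Those genes had a mean of at least 1 FPKM. *Fosb* missed that limit, with a mean of 0.17 to 1.76 FPKM by group. *Fosl1*, at 0 in control and under 1 FPKM in COS+APAP, passed it through the APAP libraries. In liver tissue as a whole, more RNA per cell and more cells that express a gene cannot be told apart.

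The first question was how the AP-1 genes stood 6 h after the toxic dose. All 7 members had higher FPKM in both APAP libraries than in either control library, where 32.1% of the tested genes did. The 6 tested members were all called higher, where 23.3% of the tested genes were called higher and 22.1% lower. *Fosl1* is among these 6 only through its APAP libraries, and *Fosb* missed the limit. With a limit of 0.1 FPKM, 6 of 7 members were called higher, where 2804 of 17024 genes were. *Jun* became the most abundant member in APAP, and *Fosl1*, at 0 in both control libraries, became measurable.

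**Figure D1:**
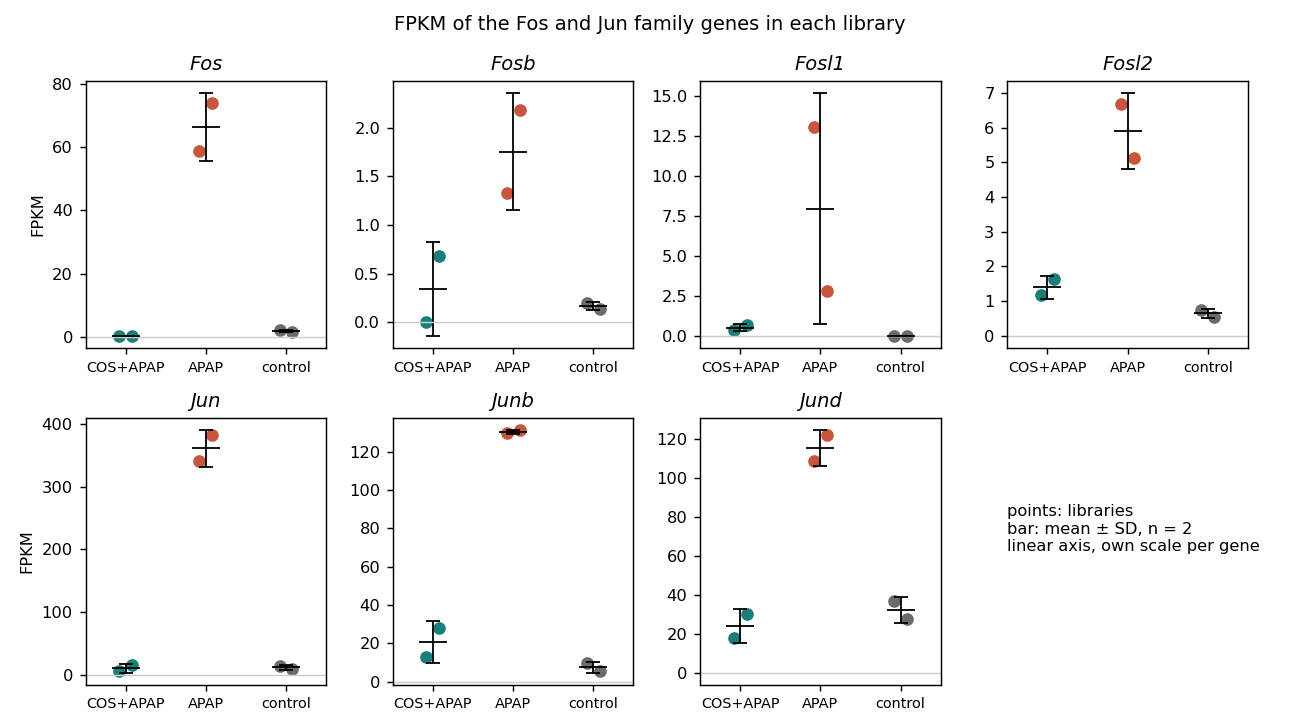
FPKM of each Fos and Jun family gene (linear y axis with its own scale per gene) in COS+APAP, APAP and control libraries; points are libraries, and the bar is the mean with its SD (n = 2). In every panel the APAP points lie above all others, and the pair of APAP points of *Fosl1* (13.1 and 2.84 FPKM) is the widest apart.

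*Jun* encodes c-Jun, the Jun protein that JNK activates. It had 340.2 and 382 FPKM in APAP replicates 1 and 3, against 14.7 and 9.36 FPKM in control replicates 1 and 3. Both APAP libraries were more than an order of magnitude above both control libraries. The fitted log2 fold change was 5.04 ± 0.58 (adjusted p = 0.00258, edgeR's quasi-likelihood test, Benjamini-Hochberg adjustment; all adjusted p-values come from it unless another tool is named).

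*Junb* encodes a Jun protein that is a weaker activator than c-Jun at many sites and can counter it. It had 129.8 and 131 FPKM in APAP, against 9.6 and 5.6 FPKM in control. The APAP libraries were nearly alike, and the log2 fold change was 4.24 ± 0.49 (adjusted p = 0.00257).

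*Jund* encodes the Jun protein that most resting tissues express. It had 109 and 122 FPKM in APAP, against 36.8 and 27.5 FPKM in control. *Jund* had the smallest rise of the 6 tested members, a log2 fold change of 1.98 ± 0.29 (adjusted p = 0.00493), from the highest control level.

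*Fos* encodes c-Fos, the partner of c-Jun in the classical AP-1 dimer. It had 58.7 and 73.8 FPKM in APAP, against 2.24 and 1.86 FPKM in control. The log2 fold change of *Fos* was 5.14 ± 0.18 (adjusted p = 0.00069), close in size to that of *Jun* and with a smaller error.

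*Fosl1* encodes Fra-1, a Fos protein without the transactivation domain of c-Fos. It had 13.1 and 2.84 FPKM in APAP (2112 and 486 estimated counts), against 0 in both control libraries. APAP replicate 1 thus held 4.6 times the level of replicate 3, and only 1.00% of the tested genes lay at least as far apart between these 2 libraries. Against a floor of 3 fragments over the control group, taken as 12 estimated counts, *Fosl1* was at least 238-fold higher in APAP (adjusted p = 0.00542), and at least 85.2-fold higher without APAP replicate 1 or 406-fold without replicate 3. The call held with any 1 library left out (adjusted p up to 0.0231), in fits where the remaining library is assumed to vary like the other groups. The floor covers counting error only.

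*Fosl2* encodes Fra-2, the other Fos protein of that kind. It had 6.67 and 5.13 FPKM in APAP, against 0.740 and 0.560 FPKM in control, a log2 fold change of 3.31 ± 0.28 (adjusted p = 0.00149). *Fosb*, whose transcript is also spliced to the truncated form ΔFosB, had 1.33 and 2.18 FPKM in APAP, against 0.200 and 0.140 FPKM in control. With the limit lowered to a mean of 0.1 FPKM, its log2 fold change was 3.48 ± 1.70 (adjusted p = 0.173 over 17024 genes) and it was not called.

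The second question was how costunolide pretreatment bore on these levels. All 7 members had lower FPKM in both COS+APAP libraries than in either APAP library, where 35.3% of the tested genes did. The 6 tested members were all called lower, where 11.1% of the tested genes were called lower and 11.2% higher. That count is decided in part by the limit on FPKM, which *Fosl1* passed through the APAP libraries and *Fosb* missed. With a limit of 0.1 FPKM, 5 of 7 members were called lower, where 1290 of 17024 genes were. With no limit it was also 5 of 7. The fitted fall was largest for *Fos* and smallest for *Fosl2*.

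*Fos* had 0.470 FPKM in each COS+APAP library (85 and 93 estimated counts), against 58.7 and 73.8 FPKM in APAP. The log2 fold change was -7.10 ± 0.20 (adjusted p = 0.000889). *Jun* had 5.45 and 15.2 FPKM in COS+APAP, against 340.2 and 382 FPKM in APAP. Its log2 fold change was -5.11 ± 0.58 (adjusted p = 0.00783), although COS+APAP replicate 3 held 2.78 times the level of replicate 2. The value was -6.04 without COS+APAP replicate 3, and both libraries lay far below the APAP libraries.

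*Junb* had 12.8 and 28.3 FPKM in COS+APAP, against 129.8 and 131 FPKM in APAP, a log2 fold change of -2.64 ± 0.45 (adjusted p = 0.0171). This call was lost without APAP replicate 1 (adjusted p = 0.0699) or replicate 3 (0.0514). *Jund* had 17.8 and 30.2 FPKM in COS+APAP, against 109 and 122 FPKM in APAP, a log2 fold change of -2.24 ± 0.30 (adjusted p = 0.0105). Without COS+APAP replicate 3 the value of *Junb* was -3.34. Both genes stayed below every APAP library in both COS+APAP libraries.

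*Fosl2* had 1.17 and 1.63 FPKM in COS+APAP, against 6.67 and 5.13 FPKM in APAP, a log2 fold change of -2.06 ± 0.26 (adjusted p = 0.0098). *Fosl1* had 0.370 and 0.680 FPKM in COS+APAP (59 and 115 estimated counts), against 13.1 and 2.84 FPKM in APAP. Its log2 fold change of -3.89 ± 0.89 (adjusted p = 0.0429) rested on APAP replicate 1: without that library it was -2.37 (adjusted p = 0.0933), and without APAP replicate 3 it was -4.62 (0.022). The call was also lost without COS+APAP replicate 2 (adjusted p = 0.175) or replicate 3 (0.129), with a limit of 0.1 FPKM (0.0516) and with no limit (0.0571). *Fosb* had 0 and 0.680 FPKM in COS+APAP (0 and 349 estimated counts), against 1.33 and 2.18 FPKM in APAP. The COS+APAP libraries disagreed for *Fosb*, which was not called at the lower limit (log2 fold change -2.34 ± 1.61, adjusted p = 0.367).

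**Figure D2:**
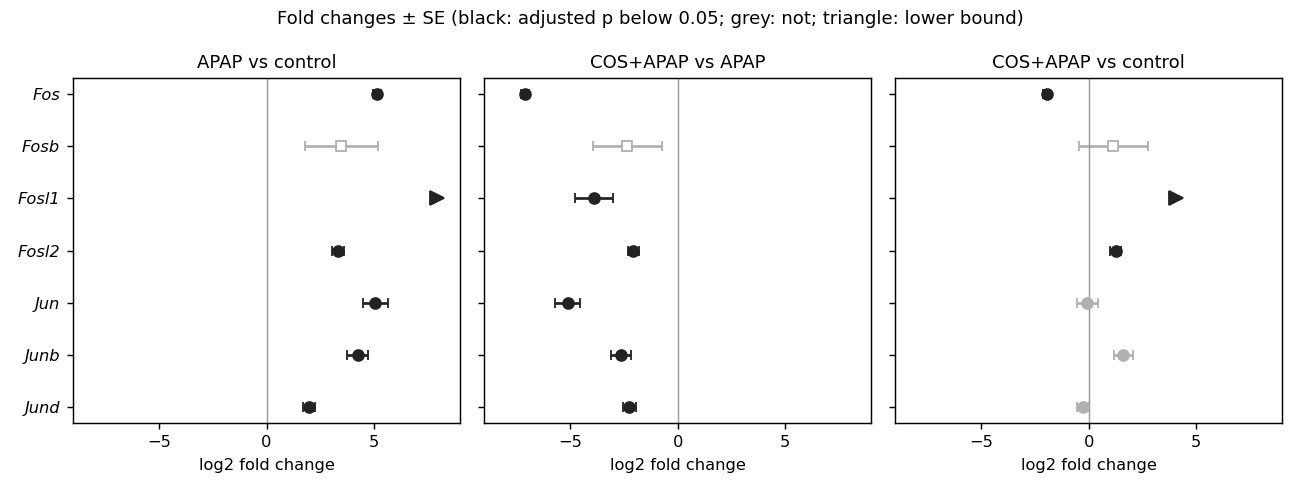
Log2 fold changes with SE (x axis) of each gene in the 3 comparisons; black marks an adjusted p below 0.05, grey a larger one, open squares *Fosb* at the lower limit on FPKM, and triangles lower bounds for *Fosl1*, which was at 0 in control. The 6 tested members lie right of 0 in APAP against control and left of 0 in COS+APAP against APAP, and in COS+APAP against control *Fos* lies left and *Fosl2* right.

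Set against control, the COS+APAP libraries did not show one common direction. *Fos* was below control and *Fosl2* and *Fosl1* were above it, and these 3 of the 6 tested members were called, where 10.7% of the tested genes were called higher and 10.3% lower. *Fosl1*, *Fosl2* and *Junb* had higher FPKM in both COS+APAP libraries than in either control library, as 25.0% of the tested genes did, and *Fos* had lower FPKM in both, as 42.3% did. The libraries of *Fosb*, *Jun* and *Jund* overlapped between these groups.

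*Fos* had 0.470 FPKM in both COS+APAP libraries, against 2.24 and 1.86 FPKM in control, a log2 fold change of -1.96 ± 0.17 (adjusted p = 0.00365). With any 1 library left out, when the other groups give the spread, its adjusted p was at most 0.0272. *Fosl2* had 1.17 and 1.63 FPKM in COS+APAP, against 0.740 and 0.560 FPKM in control, a log2 fold change of 1.25 ± 0.26 (adjusted p = 0.0266). That call was lost without COS+APAP replicate 3 (0.109), control replicate 1 (0.0531) or control replicate 3 (0.114), and with limma on log2(FPKM + 1) (0.0744). *Fosl1*, listed at 0 in control, was at least 16.6-fold higher in COS+APAP (adjusted p = 0.034), and its call was lost without any 1 of the COS+APAP or control libraries (adjusted p = 0.0778 to 0.114), with counts divided by 4 (0.0837) and with limma (0.0653 and 0.49).

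*Junb* had 12.8 and 28.3 FPKM in COS+APAP, against 9.6 and 5.6 FPKM in control, and did not pass the test (log2 fold change 1.59 ± 0.44, adjusted p = 0.0551). It was called without COS+APAP replicate 2 (log2 fold change 2.06, adjusted p = 0.0355) and by DESeq2 (0.00218), while without COS+APAP replicate 3 its log2 fold change was 0.90 (adjusted p = 0.178). *Jun* had 5.45 and 15.2 FPKM in COS+APAP, against 14.7 and 9.36 FPKM in control (log2 fold change -0.06 ± 0.49, adjusted p = 0.939). *Jund* had 17.8 and 30.2 FPKM in COS+APAP, against 36.8 and 27.5 FPKM in control (log2 fold change -0.26 ± 0.29, adjusted p = 0.545). For *Jun* and *Jund* the sign turned with the library left out, and a difference was not detectable with this spread. *Fosb* was not called at the lower limit (1.14 ± 1.60, adjusted p = 0.69). These 3 comparisons share libraries pairwise, so their values are not independent of one another.

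The make-up of the family also differed between groups. The 7 levels summed to 38.1 and 77.2 FPKM in COS+APAP, 659 and 719 FPKM in APAP, and 64.3 and 45.1 FPKM in control. *Jund* made up 46.8% and 39.2% of that sum in COS+APAP, 16.5% and 17.0% in APAP, and 57.3% and 61.1% in control. *Jun* made up 14.3% and 19.6% in COS+APAP, 51.7% and 53.1% in APAP, and 22.8% and 20.8% in control. *Jund* was thus the leading transcript in control and COS+APAP, and *Jun* in APAP. *Junb* took 33.7% and 36.7% of the sum in COS+APAP, 19.7% and 18.3% in APAP, and 14.9% and 12.4% in control, so that its share was highest in COS+APAP. The Fos family together took 5.28% and 4.48% in COS+APAP, 12.1% and 11.7% in APAP, and 4.95% and 5.68% in control. *Fos* alone took 1.23% and 0.610% in COS+APAP, 8.92% and 10.3% in APAP, and 3.49% and 4.13% in control, and in COS+APAP *Fosl2* (3.07% and 2.11%) stood above it. These shares are descriptions with no test.

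**Figure D3:**
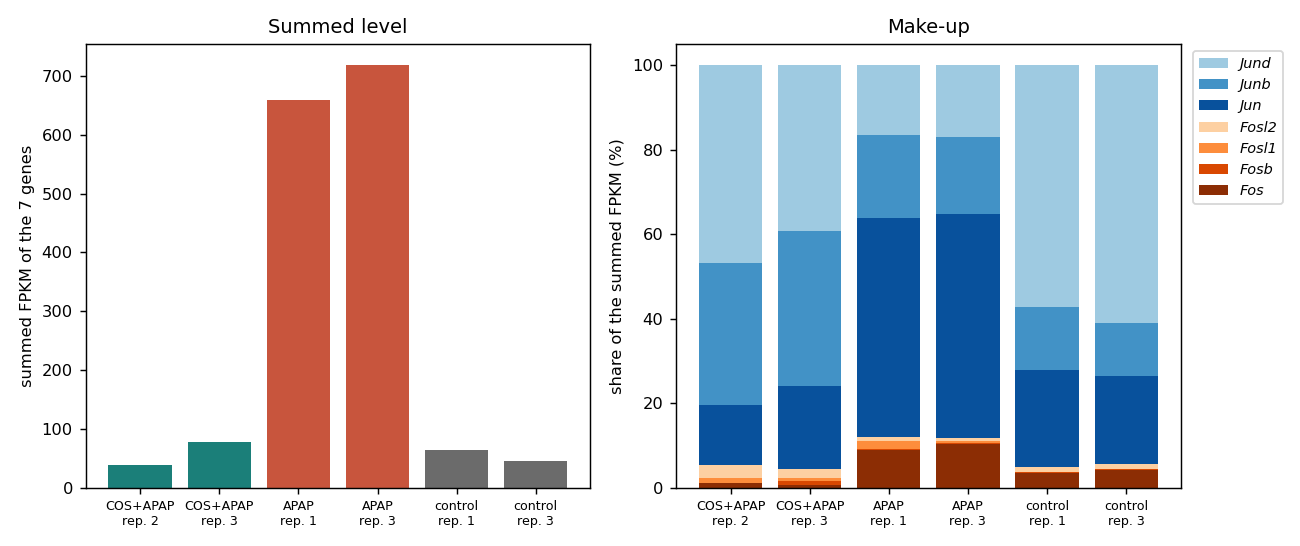
Summed FPKM of the 7 genes per library (left, from 0) and the share of each gene in that sum in percent (right) for COS+APAP, APAP and control libraries. The APAP bars reach 659 and 719 FPKM, with *Jun* at 51.7% and 53.1% of the sum, while *Jund* has the largest share in the other 4 libraries.

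In APAP the order of mean levels ran *Jun*, *Junb*, *Jund*, *Fos*, *Fosl1*, *Fosl2*, *Fosb*, and the libraries of *Fosl1* and *Fosl2* overlapped. In COS+APAP it ran *Jund*, *Junb*, *Jun*, *Fosl2*, *Fosl1*, *Fos*, *Fosb*. There *Jund* and *Junb* overlapped, as did *Junb* and *Jun*, and *Fosl1*, *Fos* and *Fosb* overlapped as well. In control the order was *Jund*, *Jun*, *Junb*, *Fos*, *Fosl2*, *Fosb*, *Fosl1*, and *Jun* and *Junb* overlapped.

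The spread between the COS+APAP libraries was wide for most members. COS+APAP replicate 3 exceeded replicate 2 by 2.78 times for *Jun*, 2.21 times for *Junb*, 1.84 times for *Fosl1*, 1.70 times for *Jund* and 1.39 times for *Fosl2*. Of the tested genes, 2.62% were at least as far apart as *Jun*, 4.44% as *Junb* and 8.54% as *Jund*, and the median ratio over all of them was 0.994. *Fos* was the exception, at 0.470 FPKM in both. Between the APAP libraries *Junb* differed by 1.011 times, *Jund* and *Jun* by 1.12 times and *Fos* by 1.26 times.

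Among the dimer partners and relatives of AP-1, basic leucine zipper proteins that pair with Fos or Jun or share their sites, 4 of 9 tested genes rose in APAP against control and 0 fell. *Atf3*, a stress-induced partner of Jun proteins, had 246 and 213 FPKM in APAP, against 0.880 and 1.04 FPKM in control (log2 fold change 8.04 ± 1.22, adjusted p = 0.00511). The small Maf genes *Maff* (5.72 ± 1.52) and *Mafk* (2.72 ± 0.36) and *Atf4* (0.99 ± 0.24) were the others. In COS+APAP against APAP, *Mafk* (-1.58 ± 0.34, adjusted p = 0.0289) and *Atf4* (-0.92 ± 0.24, adjusted p = 0.0453) fell and 0 rose. *Atf3* had 11.1 and 99.6 FPKM in COS+APAP and was not called against APAP (-2.03 ± 0.92, adjusted p = 0.169). *Maff* had 0.940 and 25.2 FPKM in COS+APAP and was not called either (-2.59 ± 1.31, adjusted p = 0.208). For both, COS+APAP replicate 3 was far above replicate 2, as it was to a smaller degree for *Jun* and *Junb*. Against control, *Atf3* stayed higher in COS+APAP (6.01 ± 1.11, adjusted p = 0.02), while *Mafg* fell (-0.58 ± 0.12, adjusted p = 0.0244). The list medians were 0.18, -0.48 and 0.08 in APAP against control, COS+APAP against APAP and COS+APAP against control, beside medians of all tested genes within 0.02 of 0. In the same order, 23.3%, 11.2% and 10.7% of all tested genes were called higher and 22.1%, 11.1% and 10.3% lower. The list's counts in COS+APAP against control were near these shares.

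Regulators known to act on the *Fos* and *Jun* promoters included *Egr1*, itself an immediate early gene, and *Srf*, whose protein binds the CArG box. Of 8 tested genes of that list, 6 rose in APAP against control and 0 fell. *Egr1* had 285 and 232 FPKM in APAP, against 3.72 and 1.59 FPKM in control (6.74 ± 1.10, adjusted p = 0.00632), and *Srf* had a log2 fold change of 1.59 ± 0.36 (adjusted p = 0.0179). The SRF coactivators *Mrtfb* (1.14 ± 0.32) and *Mrtfa* (0.87 ± 0.21) also rose. In COS+APAP against APAP, 3 fell and 0 rose: *Egr1* (-6.20 ± 1.07, adjusted p = 0.0174), *Mrtfb* (-1.24 ± 0.32, adjusted p = 0.0452) and *Mrtfa* (-0.82 ± 0.21, adjusted p = 0.0446). *Egr1* had 0.900 and 6.01 FPKM in COS+APAP and was not called against control (0.54 ± 0.87, adjusted p = 0.692), where *Elk4* (0.65 ± 0.15, adjusted p = 0.0346) was the 1 gene that rose. The list medians were 0.93, -0.91 and 0.21 in the 3 comparisons. In the same order, 23.3%, 11.2% and 10.7% of all tested genes were called higher and 22.1%, 11.1% and 10.3% lower. The list's count of higher calls in COS+APAP against control was near that share.

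Of 14 tested transcripts of upstream kinases, 3 rose and 3 fell in APAP against control, a share near that of all tested genes in each direction. *Map3k5*, which encodes ASK1, a kinase above JNK and p38, had 15.6 and 14.0 FPKM in APAP, against 2.98 and 2.61 FPKM in control (2.54 ± 0.20, adjusted p = 0.00131). *Mapk8*, which encodes JNK1, also rose (1.51 ± 0.33, adjusted p = 0.0157). It had 1.18 and 0.69 FPKM in COS+APAP, 1.96 and 1.94 FPKM in APAP, and 0.92 and 0.59 FPKM in control. *Mapk8* thus passed the limit on FPKM through the APAP libraries, and the list's counts are decided in part by that limit. *Map2k6*, a kinase of p38, fell (-3.02 ± 0.44, adjusted p = 0.0047), as did *Rps6ka1* (-1.19 ± 0.23, adjusted p = 0.00984). In COS+APAP against APAP, *Map2k6* rose (3.27 ± 0.45, adjusted p = 0.0108) and *Map3k5* fell (-1.03 ± 0.19, adjusted p = 0.0192). *Map3k5* remained above control in COS+APAP (1.51 ± 0.19, adjusted p = 0.00832). The list medians were 0.24, -0.04 and 0.30 in the 3 comparisons. In the same order, 23.3%, 11.2% and 10.7% of all tested genes were called higher and 22.1%, 11.1% and 10.3% lower. These are mRNA levels, and kinase activity was not measured.

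Genes of *Fos* and *Jun* turnover followed the members in part. *Zfp36* encodes tristetraprolin, which binds AU-rich elements such as those printed above and speeds decay of the mRNA. It had 27.5 and 40.0 FPKM in COS+APAP, 148 and 159 FPKM in APAP, and 30.5 and 25.7 FPKM in control. It rose in APAP against control (2.58 ± 0.22, adjusted p = 0.00151) and fell in COS+APAP against APAP (-2.16 ± 0.22, adjusted p = 0.00635). *Elavl1*, which encodes HuR, a stabilising protein of the same elements, also rose in APAP (1.33 ± 0.15, adjusted p = 0.0024) and fell in COS+APAP against APAP (-1.36 ± 0.15, adjusted p = 0.00729). Of 10 tested genes of the list, 5 rose and 1 fell in APAP against control, 1 rose and 4 fell in COS+APAP against APAP, and 1 rose and 0 fell in COS+APAP against control. The list medians were 0.28, -0.58 and -0.02 in the 3 comparisons. In the same order, 23.3%, 11.2% and 10.7% of all tested genes were called higher and 22.1%, 11.1% and 10.3% lower. The list's counts of higher calls in the last 2 comparisons were near these shares.

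Genes known as AP-1 targets, most of which also have other regulators, were measured in 16 of 30 cases above the limit. Of these, 13 rose and 2 fell in APAP against control, where 23.3% of the tested genes were called higher and 22.1% lower. The list median was a log2 fold change of 4.88. *Hmox1*, heme oxygenase 1, had 772 and 689 FPKM in APAP, against 5.28 and 5.35 FPKM in control (7.24 ± 0.36, adjusted p = 0.000878). *Mt2* (8.72 ± 0.42) and *Mt1* (7.18 ± 0.21), the metallothioneins, were also among the largest rises. *Sprr1a*, a cornified envelope gene, had 22.4 and 16.7 FPKM in APAP and was listed at 0 in each control library, which makes it at least 236-fold higher (adjusted p = 0.0152). *Ccnd1*, cyclin D1 (-0.96 ± 0.25, adjusted p = 0.0264), and *Vegfa* (-0.95 ± 0.25, adjusted p = 0.0285) fell.

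In COS+APAP against APAP, 11 of the 16 targets fell and 0 rose, where 11.1% of the tested genes were called lower and 11.2% higher. The list median was -1.68. *Cxcl2*, a neutrophil-attracting chemokine (-5.49 ± 1.24, adjusted p = 0.0319), and *Hbegf*, a growth factor of the EGF family (-4.67 ± 0.53, adjusted p = 0.00768), fell most. *Plaur*, the urokinase receptor, fell by 3.67 ± 0.54 (adjusted p = 0.0123). Other listed genes did not follow. *Mt1* had 1329 and 1682 FPKM in COS+APAP, against 1659 and 1745 FPKM in APAP (-0.16 ± 0.16, adjusted p = 0.507), and *Mt2* stood at -0.63 ± 0.30 (adjusted p = 0.19). *Sprr1a* had 2.39 and 32.9 FPKM in COS+APAP, against 22.4 and 16.7 FPKM in APAP, with the COS+APAP libraries on either side. *Cxcl2*, *Hbegf* and *Plaur*, under 1 FPKM in the other groups, passed the limit on FPKM through the APAP libraries. The list's counts and medians in both comparisons with APAP are thus decided in part by that limit. Against control, where 10.7% of the tested genes were called higher and 10.3% lower, 7 targets were called higher in COS+APAP and 2 lower. The list median was 0.86. The lower ones were *Vegfa* and *Dcn*, and *Dcn* had been called higher in APAP against control (0.53, adjusted p = 0.0488). The higher ones included *Mt2* (8.09 ± 0.41), *Mt1* (7.02 ± 0.21), *Hmox1* (4.70 ± 0.32) and *Sprr1a* (at least 222-fold, and at least 29.3-fold without COS+APAP replicate 3).

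**Figure D4:**
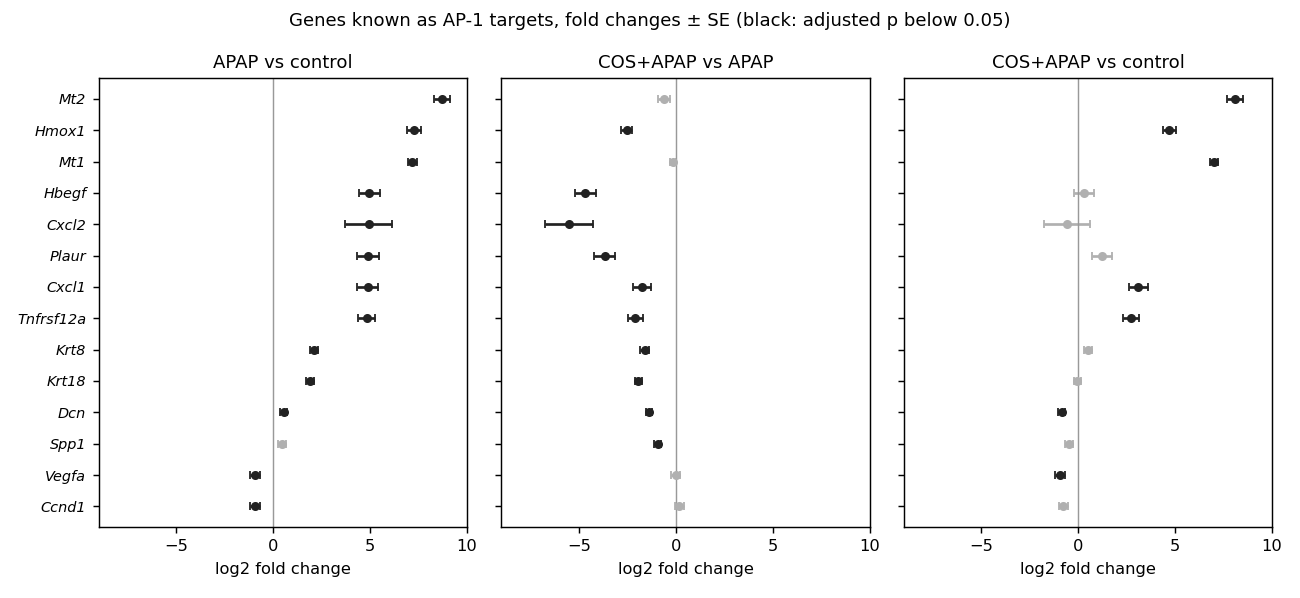
Log2 fold changes with SE (x axis) of 14 genes known as AP-1 targets in the 3 comparisons, in order of their value in APAP against control; *Sprr1a*, at 0 in control, is not drawn. Black marks an adjusted p below 0.05 and grey a larger one, and *Mt1* and *Mt2* lie near 0 in COS+APAP against APAP, where *Cxcl2*, *Hbegf* and *Plaur* lie left of -3.

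Some markers of other cell types moved beside the AP-1 genes, and their part in these levels was not tested. In APAP against control 1 of 3 tested neutrophil markers, 2 of 2 monocyte, 4 of 9 sinusoidal endothelial, 3 of 6 stellate cell, 3 of 10 Kupffer cell and macrophage, 1 of 3 cholangiocyte and 4 of 5 erythroid markers were called higher and 0 lower. Of all tested genes, 23.3% were called higher and 22.1% lower there. The neutrophil, macrophage and cholangiocyte counts were near that share of higher calls. The tested monocyte markers were *Cd14* and *Thbs1*, and *Thbs1*, under 1 FPKM in the other groups, passed the limit on FPKM through the APAP libraries. The stellate cell marker *Lum*, the macrophage marker *Adgre1* and the uncalled neutrophil markers *S100a8* and *Retnlg* also passed it through those libraries. *Lum* had 0.71 and 0.47 FPKM in COS+APAP, 1.82 and 2.3 FPKM in APAP, and 1.17 and 1.23 FPKM in control. The monocyte, stellate cell, macrophage and neutrophil counts are thus decided in part by that limit. In COS+APAP against APAP 1 neutrophil, 2 monocyte, 6 endothelial, 4 stellate cell, 1 macrophage, 2 cholangiocyte and 4 erythroid markers were called lower, and 1 endothelial and 1 macrophage marker higher. Of all tested genes, 11.1% were called lower and 11.2% higher, and the macrophage counts were near these shares. The 10 neutrophil markers summed to 4.13 and 2.70 FPKM in COS+APAP, 34.4 and 11.2 FPKM in APAP, and 4.17 and 6.84 FPKM in control, with the defining marker *Ly6g* at 0 in all 6 libraries. The 6 monocyte markers, of which the defining *Ly6c2* and *Ccr2* were at 0.2 FPKM or less throughout, summed to 3.09 and 2.22 FPKM in COS+APAP, 39.6 and 18.4 FPKM in APAP, and 1.76 and 1.17 FPKM in control. The 9 sinusoidal endothelial markers summed to 26.2 and 23.7 FPKM in COS+APAP, 45.9 and 43.2 FPKM in APAP, and 30.7 and 34.4 FPKM in control. The 10 stellate cell markers summed to 49.3 and 28.6 FPKM in COS+APAP, 77.2 and 75.8 FPKM in APAP, and 70.7 and 65.9 FPKM in control. Most of that sum was *Ecm1* and *Dcn*, and *Dcn* is also on the list of AP-1 targets. The defining stellate cell marker *Lrat*, below the limit on FPKM, had 0.760 and 0.550 FPKM in COS+APAP, 0.510 and 0.570 FPKM in APAP, and 1.66 and 1.85 FPKM in control. *Col1a1* and *Col3a1* were likewise lower in both APAP libraries than in either control library, *Col1a1* untested and *Col3a1* not called. The 6 erythroid markers summed to 309 and 316 FPKM in COS+APAP, 1492 and 1075 FPKM in APAP, and 298 and 269 FPKM in control. The 10 Kupffer cell and macrophage markers, at 139 and 144 FPKM in COS+APAP, 135 and 188 FPKM in APAP, and 139 and 119 FPKM in control, overlapped between APAP and each other group. The 8 lymphocyte markers summed to at most 2.00 FPKM in any library, and the 6 cholangiocyte markers to 20.2 and 21.1 FPKM in COS+APAP, 51.6 and 35.7 FPKM in APAP, and 28.8 and 35.0 FPKM in control, most of it *Spp1*, which is also on the list of AP-1 targets. APAP replicate 1, with the higher *Fosl1*, was the higher of the APAP pair in every marker sum but the Kupffer cell and macrophage one. The hepatocyte sum, 59293 FPKM in APAP replicate 1 and 56751 FPKM in replicate 3, was among them.

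Genes whose profile over the 6 libraries was most like a member's were found by the root mean square distance of log2(FPKM + 1) values centred on each gene's mean. For *Jun* the nearest gene was *Ier2*, another immediate early gene, at 0.35. It had 7.11 and 17.8 FPKM in COS+APAP, 243 and 293 FPKM in APAP, and 13.6 and 13.2 FPKM in control. The next for *Jun* was the noncoding RNA gene *Rn7sk* (0.435). *Rn7sk* had 2.26 and 8.36 FPKM in COS+APAP, 112 and 110 FPKM in APAP, and 7.81 and 2.02 FPKM in control. For *Fos* the nearest gene was *Mir22* (0.48), whose reads may belong to a longer host RNA, with *Ier2* next (0.58). *Jund* lay nearest to *Dusp1*, a phosphatase acting on MAP kinases (0.18), *Fosl2* to *Clic4* (0.10) and then to the endothelial marker *Lyve1* (0.12), *Fosb* to *Krt23* (0.14), and *Fosl1* to *Acot5* (0.32). *Junb* lay as near to *Gm8399* as to *Ifrd1* (0.32 each). Among the members themselves the closest pairs by this distance were *Fosb* and *Fosl2* (0.43), *Fosl2* and *Jund* (0.46), and, at an equal distance (0.50), *Fos* and *Jun* and *Fosb* and *Jund*. The distance depends on the size of a change, and adding 1 shrinks changes of genes at low FPKM such as *Fosb*. Pearson correlations of the same values ordered the pairs otherwise. They were 0.989 for *Jun* and *Jund*, 0.986 for *Fosl2* and *Junb* and 0.978 for *Fos* and *Jun*. *Fosb* and *Fosl2* had 0.899, and *Fosl2* and *Jund* 0.889. Every likeness rests on the same 6 libraries and 3 groups.

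The gene positions are those of the deposited table, which equal those of GENCODE release M21 (GRCm38) for 6 of the 7 members, *Junb* being the exception. *Jun* (ENSMUSG00000052684) lies on chromosome 4 from 95049034 to 95052222 and *Fos* (ENSMUSG00000021250) on chromosome 12 from 85473890 to 85477273. *Jun* and *Jund* have 1 exon, and the Fos family genes 4 or 5. Some members overlap other genes, and the sources used here do not say whether counting used strand. *Ccdc85b* overlaps *Fosl1* on the opposite strand. It had 1.27 and 1.48 FPKM in COS+APAP, 9.0 and 3.95 FPKM in APAP, and 1.32 and 1.39 FPKM in control, so without strand part of either signal could be shared. *Junos* overlaps *Jun* and *Gm11175* overlaps *Jund*, both on the opposite strand and at no more than 0.120 FPKM in any library. *Prdx2*, which lies 2076 bases from *Junb*, had 21.4 and 19.7 FPKM in COS+APAP, 17.7 and 17.9 FPKM in APAP, and 25.9 and 27.9 FPKM in control, and so did not follow *Junb*.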

How the data were processed

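Poly(A) RNA of 6 mouse liver libraries was sequenced in paired ends on an Illumina NovaSeq, per the labels' protocols. The submitters' processing notes name HISAT2 2.0 and StringTie 1.3.0. No source used here names the genome build. The authors deposited estimated counts and FPKM values for each gene in each library, as the column names state. The estimated counts deposited were whole numbers and were used as they are. Counts of 4 (766 to 990 genes per library) far outnumbered counts of 3 (290 to 350), so about 4 counts were taken as 1 fragment. A further 6 columns of FPKM matched no sample. They were seen when the table was first inspected, and no value here was computed from them.

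The test covered 10051 genes whose FPKM averaged 1 or more, in edgeR 4.0.16 (R 4.3.3): TMM scaling, a quasi-likelihood F test in 1 model of the 3 groups over 6 libraries (3 residual degrees of freedom), two-sided, Benjamini-Hochberg adjustment over all tested genes. Standard errors are the log2 fold change over the square root of F. The test was checked on simulated counts. With 2 libraries against 2, an exact permutation test of 1 gene cannot give a p below 0.33. Alternatives were other scalings, DESeq2 1.42.0, limma 3.58.1 on log2(FPKM + 1) and log2(FPKM + 0.1), other limits on FPKM, fits of 2 groups, counts divided by 4, a replicate block, and leaving out each library.

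The members and lists were chosen with earlier results of these data known. Named from each list were, per comparison, at most 4 called genes with the largest changes and 2 uncalled ones with the highest mean FPKM; genes outside this rule were named for contrast after their values were seen. One gene of the target list, counted in the list, is not reported here by name.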

Additional observations from a re-analysis of the deposited data

How the results depend on the processing

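The 6 AP-1 calls in APAP against control were made under all 17 alternatives. In COS+APAP against APAP, *Fos*, *Fosl2*, *Jun* and *Jund* were called under the 16 alternatives without a replicate block, and the 6 members kept their direction under all 17. Leaving out 1 library gave 6 called members in APAP against control, 4 to 6 in COS+APAP against APAP and 1 to 3 in COS+APAP against control, where limma on log2(FPKM + 1) called 1 of the 6. Over all genes, leaving out 1 library gave 3033 to 4117 calls beside 4561 in APAP against control, 612 to 1941 beside 2249 in COS+APAP against APAP, and 590 to 1716 beside 2109 in COS+APAP against control. DESeq2 called 3552 genes in COS+APAP against APAP and 3422 in COS+APAP against control. The uncalled difference of *Jun* between COS+APAP and control ranged between -0.9952 and 0.4984 with 1 library left out and turned positive without control replicate 1 (0.31) or COS+APAP replicate 2, and that of *Jund* ranged between -0.7075 and 0.0742 and turned positive without COS+APAP replicate 2. Scaling by library totals alone moved the median of all genes in APAP against control to -0.16 and the split of calls to 1869 higher and 2814 lower, beside 2342 and 2219, and in COS+APAP against control to 706 higher and 1644 lower, beside 1073 and 1036. Upper quartile scaling gave 1975 higher and 2708 lower in APAP against control, and 1567 higher and 930 lower in COS+APAP against APAP, beside 1130 and 1119; no call of a member turned direction. The causes were not tested.

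Same-numbered libraries of control and APAP did not deviate together (correlation 0.02), and COS+APAP shares 1 number with them. With 2 libraries a group, that correlation cannot decide whether same-numbered libraries were handled together, and the main test did not pair them. With the replicate number as a block, which leaves 1 residual degree of freedom, 1 member was called in COS+APAP against APAP (*Fos*, adjusted p = 0.0493) and 1 in COS+APAP against control (*Fosl1*), with 31 and 139 genes called in all. Only COS+APAP has a replicate 2, so the block fits that library on its own. The COS+APAP values then rest on COS+APAP replicate 3. *Jun* (0.66) and *Jund* (0.17) were positive against control with the block, as they were without COS+APAP replicate 2 (0.50 and 0.07). Each group has 2 libraries, so a group with 1 left out is assumed to vary like the others. *Fosb* (0 and 349 estimated counts in COS+APAP) and *Fosl1* (2112 and 486 in APAP) differed widely within a group.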
